A study of Homo sapiens with 15 samples.

Results

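The protocadherins, the largest family of cadherin-related cell-surface adhesion proteins, were read from RNA sequencing of EGFR-mutant lung adenocarcinoma cells. Members were all genes of the deposited count table with a symbol starting with PCDH, apart from PCDH11Y, which gave 65 of 19612 genes. They comprised 15 PCDHA, 16 PCDHB and 22 PCDHG genes, which stand in neighbouring clusters on chromosome 5, and 12 non-clustered genes. The study asked how resistance to osimertinib, an inhibitor of mutant EGFR, and treatment with 1,25(OH)2D3, the vitamin D hormone, altered transcription in H1975 cells.

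H1975 is a human lung adenocarcinoma line that carries the EGFR mutations T790M and L858R, and H1975–OR is the resistant line grown from it under prolonged osimertinib, with the same EGFR status. Routine medium of H1975–OR held 500 nM osimertinib. Every group was then moved to treatment medium with charcoal-stripped serum for 96 h, with doses at 0, 48 and 92 h. H1975–OR cells with vehicle or with 1,25(OH)2D3 alone thus had osimertinib withdrawn for this time. The osimertinib comparison therefore sets its presence against its withdrawal. The 5 groups of 3 libraries were H1975 with vehicle (Samples 1a to 1c), H1975–OR with vehicle (2a to 2c), H1975–OR with 100 nM 1,25(OH)2D3 (3a to 3c), H1975–OR with 500 nM osimertinib (4a to 4c) and H1975–OR with both agents (5a to 5c). RNA came from 3 separate passages. One resistant line was compared with its parent, so that resistance cannot be told apart from other ways in which this derivative differs. Nor can it be told apart from the withdrawal of osimertinib in the H1975–OR vehicle group.

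Each library held between 4378033 and 6140025 estimated counts over genes. Sample 3a stood apart: it had the highest total, 15148 genes with a count against 14110 to 14617 in the other 14 libraries, and a mitochondrial share of 1.54% against 0.424% to 1.05%. The study left this library out, and it stayed out of the tests below and out of group means. Its own values, or means that include it, are given beside some of the values it touches. Epithelial markers summed to between 3228 and 5560 CPM (counts per 1000000 in a library, scaled by TMM factors) in every library, although NAPSA, a lung adenocarcinoma marker, averaged between 0 and 1.45 CPM. Of 7 neuronal markers, STMN2 and ELAVL4 were at 0 in all 15 libraries, and the summed level, mostly TUBB3 and SYT1, was 53.9 to 170 CPM. In bulk RNA, fewer cells with a transcript and less transcript per cell cannot be told apart.

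Protocadherins are single-pass membrane proteins with extracellular cadherin repeats that bind the same isoform on a neighbouring cell. The clustered members are best known from neurons, in which each cell switches on its own set of isoforms and so gains a surface identity used for self-recognition. Each PCDHA or PCDHG isoform begins at a promoter and a large variable exon of its own, which is spliced to constant exons at the end of the cluster that encode a common cytoplasmic tail, whereas PCDHB genes have no such tail. The insulator protein CTCF binds a conserved element in most clustered promoters and, with the cohesin ring, loops the chosen promoter to an enhancer. Non-clustered protocadherins are scattered genes with individual patterns of expression in epithelia, vessels and brain.

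The layout of the clusters set how far single members could be measured. In GRCh38 with the GENCODE 44 annotation, PCDHA genes lay at chr5:140786136-141012347, PCDHB genes at chr5:141051374-141249365 and PCDHG genes at chr5:141330514-141512977, all on the plus strand. Exons 2 to 4 of the canonical transcript were the same in all 15 PCDHA genes and made up 2869 bases, or 48.7% to 53.7% of each transcript. Likewise, exons 2 to 4 were the same in all 22 PCDHG genes, with 2177 bases or 44.8% to 45.9% of each. PCDHB genes each had 1 exon and shared none. Reads that fell within the constant exons carried no information on the member they came from and were divided among members by the authors' quantification, so that single PCDHA and PCDHG values are uncertain while the cluster sums do not depend on that division.

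The first constant exon (exon 2, 59 coding bases) is shown for both clusters because these letters are common to every isoform of a cluster yet differ between clusters. Capitals mark the 39 positions (66.1%) at which the alpha and gamma exons hold the same base, aligned without gaps, and the sequences were read from the plus strand of the hg38 genome. The alpha exon lay at chr5:140978949-140979007 and the gamma exon at chr5:141494807-141494865.
PCDHA exon 2: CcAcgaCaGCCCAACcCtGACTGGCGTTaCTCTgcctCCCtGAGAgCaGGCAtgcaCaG
PCDHG exon 2: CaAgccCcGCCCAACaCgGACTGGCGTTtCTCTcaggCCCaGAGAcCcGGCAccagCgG
In exon 3, of 89 bases in each cluster, only 29 positions (32.6%) were the same.

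The promoters, unlike the constant exons, differ among members. This is a difference of genome sequence and was no means of assigning RNA reads to members. RefSeq promoter windows of 300 bases on GRCh38.p14 (250 before and 50 after the start) were found for 57 of the 65 members. The letters CGCT, the core of the conserved promoter element, occurred on either strand in 12 of 13 PCDHA, 14 of 14 PCDHB, 20 of 20 PCDHG and 9 of 10 non-clustered promoters, against 71.9% of all 27305 promoters, so that the core alone separates little. Longer forms that include these letters, chosen after the sequences were seen, differed between clusters. TGTCGCT occurred in 10 of 13 PCDHA promoters and 2.15% of all promoters. GTGGCGCT occurred in 13 of 14 PCDHB promoters and 1.38% of all. CGCTGTT occurred in 13 of 20 PCDHG promoters and 2.73% of all. A match is a run of letters and not a measured binding site.

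The windows of 30 bases around CGCT (capitals) are shown for the 5 most abundant members of each cluster where they lay wholly before the start, which left out PCDHB8 and PCDHB5, with PCDH18 for contrast. All were read 5′ to 3′ on the gene's strand, plus for the clustered members and minus for PCDH18.
PCDHA10 (chr5:140855845-140855874): gccaccggatgtCGCTgtcgtccacaaaat
PCDHAC1, upstream (chr5:140926224-140926253): agaaggtgtggtCGCTcacgttcaccgtcc
PCDHAC1, downstream (chr5:140926258-140926287): tctcgccgcctcCGCTcggcagctccacgc
PCDHA4 (chr5:140806983-140807012): gccacatgatgtCGCTctttaccacaaaat
PCDHA1 (chr5:140786090-140786119): gccacatgatgtCGCTgtacaccacaaagt
PCDHA7 (chr5:140834176-140834205): gccacatgatgtCGCTctttaccgcaaatt
PCDHB16 (chr5:141182314-141182343): aacgcgtggtggCGCTgcaggttaagatga
PCDHB2 (chr5:141094548-141094577): gacgcggggtggCGCTgcagccttagaagt
PCDHB13 (chr5:141213869-141213898): gacgcgtggtggCGCTgcaggataagaagg
PCDHGB5 (chr5:141397867-141397896): gactctgggcgcCGCTgttggccaaagtgc
PCDHGB4 (chr5:141387621-141387650): gactctgggcgcCGCTgttggccaaagtgg
PCDHGA6 (chr5:141373839-141373868): gactctaagcgtCGCTgttgaccaacctgg
PCDHGB2 (chr5:141359925-141359954): acctctgagcgtCGCTgttggtcaaaagaa
PCDHGB3, upstream (chr5:141370166-141370195): ggcgccgggtgcCGCTcttggctagtgctg
PCDHGB3, downstream (chr5:141370204-141370233): attggctcctccCGCTgcagccagctcgga
PCDH18 (chr4:137532547-137532576): gatttggaagcaCGCTgattggctggaagc
For PCDHGB5, PCDHGB4 and PCDH18, which hold more than 1 such window, the one farthest from the start of the first listed transcript is shown. Of these windows, those of PCDHA10, PCDHA4, PCDHA1 and PCDHA7 hold TGTCGCT, those of the 3 PCDHB genes GTGGCGCT and those of PCDHGB5, PCDHGB4, PCDHGA6 and PCDHGB2 CGCTGTT. The windows of PCDHAC1, PCDHGB3 and PCDH18 hold none of the 3 longer forms.

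Transcripts of all 3 clusters were present in every library, at low levels for each gene. Of the 65 members, 53 had counts in all 15 libraries. PCDH8, PCDH11X and PCDH20 were at 0 in all of them, which allows up to 3 counts a library (0.477 to 0.708 CPM, counting error only), and PCDH10 and PCDH17 never exceeded 3 counts. PCDH11X is nearly identical to the gene left out by the rule, and reads that fit both may have been divided between them. The clustered members together took 0.046% to 0.0755% of all counts in the 14 libraries other than Sample 3a, in which they took 0.102%.

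Levels per kilobase of canonical transcript, averaged over those 14 libraries, placed PCDHB members first. PCDHB8 had the highest value with 10.3 CPM per kb, followed by PCDHB16 with 9.34, PCDHGB5 with 8.11 and PCDHGB4 with 7.68 CPM per kb. PCDHB2 and PCDHB5 had 6.61 and 6.49 CPM per kb. PCDHA10 led the alpha cluster with 5.03 CPM per kb, and PCDH7 led the non-clustered genes with 4.8 CPM per kb. The median member had 1.36 CPM per kb in PCDHA, 2.18 in PCDHB, 1.78 in PCDHG and 0.024 among the non-clustered genes, most of which were close to absent.

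**Figure D1:**
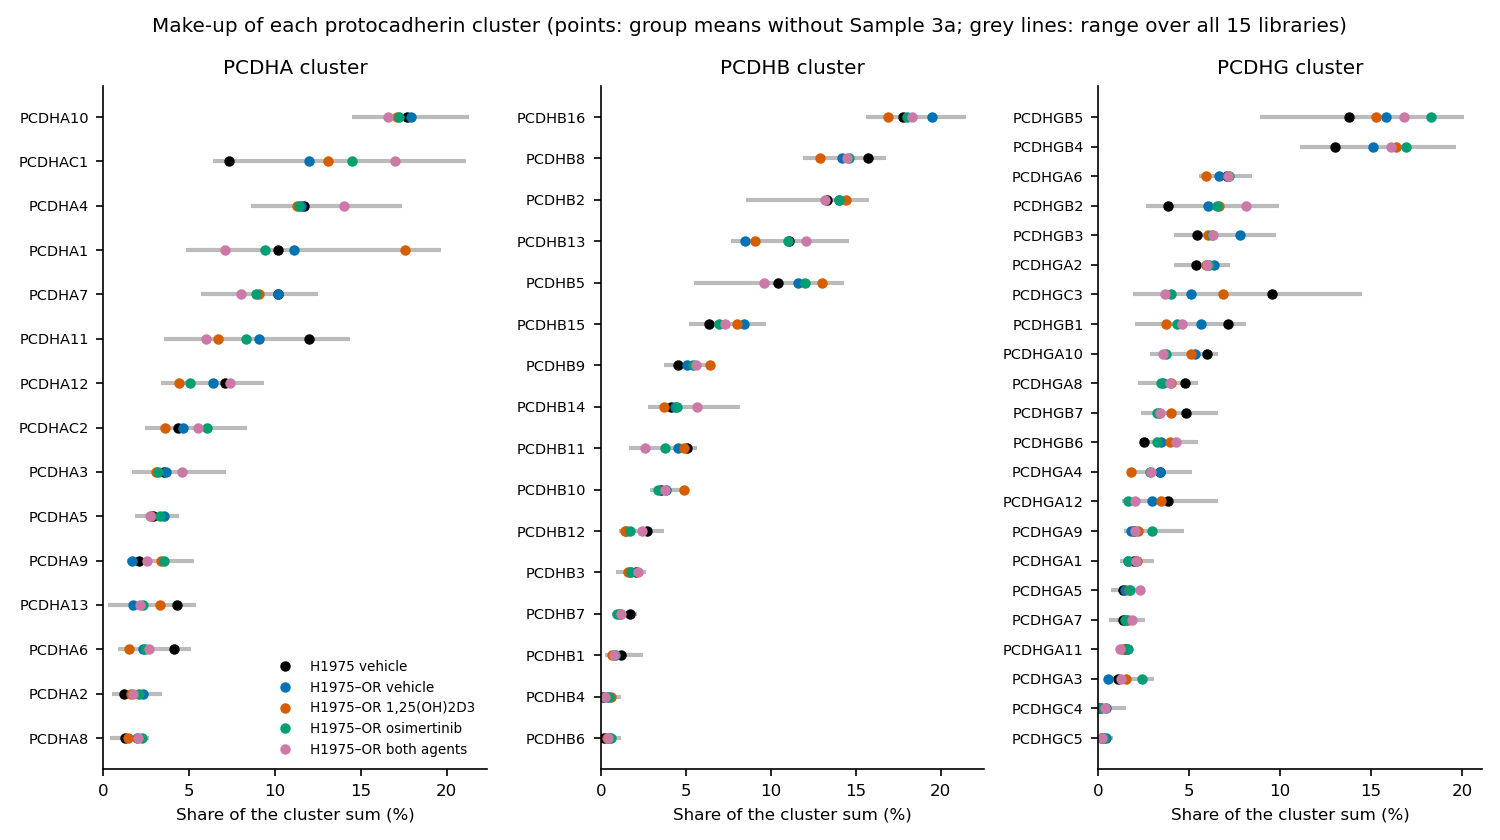
Share of the cluster sum (%, x axis) taken by each PCDHA, PCDHB and PCDHG gene (y axis), with a point for the mean of each group, Sample 3a left out, and a grey line for the range over all 15 libraries. PCDHA10, PCDHB16 and PCDHGB5 ranked first or second in their cluster in every library.

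The leading gene of each cluster ranked first or second in parental and resistant cells alike. PCDHA10 ranked first or second among PCDHA genes in all 15 libraries, with 14.5% to 21.3% of the cluster sum. PCDHB16 ranked first or second among PCDHB genes, with 15.6% to 21.5%. PCDHGB5 took 8.89% to 20.1% and PCDHGB4 11.1% to 19.7% of the PCDHG sum. Correlations of log2 CPM across the genes of a cluster were taken over all pairs of the 15 libraries, within and between cell lines. Their median was 0.84 for PCDHA (lowest 0.57), 0.939 for PCDHB (lowest 0.839) and 0.89 for PCDHG (lowest 0.764). These values do not compare the cell lines, and describe genes that share libraries and, for PCDHA and PCDHG, exons.

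Some shares varied more than others. PCDHAC1, a C-type alpha isoform, took on average 7.33% of the PCDHA sum in H1975 cells, 12% in vehicle-treated H1975–OR cells, 13.1% under 1,25(OH)2D3 (11.8% with Sample 3a), 14.5% under osimertinib and 17.0% under both agents. PCDHGC3, a C-type gamma isoform, averaged 9.53% of the PCDHG sum in H1975 and 3.66% to 6.87% in the H1975–OR groups (6.27% in place of 6.87% with Sample 3a), and ranged from 1.93% to 14.5% over libraries. These shares are descriptions, and the fitted levels of both genes are among the tests below.

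Resistant and parental cells were compared first. Of 52 members with enough counts to be tested, PCDH18 was higher in vehicle-treated H1975–OR cells, and PCDH1 and PCDH7 were lower. No PCDHA, PCDHB or PCDHG gene passed the test. The 3 calls were among the 4 non-clustered members tested. Over all genes, 20.1% passed, so that the 3 of 52 members were a smaller share than the background. Of the 12 non-clustered members only 4 had enough counts, and PCDH18 had them only in the H1975–OR libraries. The share called among these 4 is therefore not set against the background. The quasi-likelihood test of edgeR was used in a fit of 8 libraries, and p-values were adjusted over 12513 genes by the Benjamini–Hochberg method. DESeq2 called the same 3 members.

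PCDH1, which encodes a protocadherin of airway epithelium, lies at chr5:141853090-141879246 on the minus strand, outside the clusters. Its level was 12.8, 26.8 and 40.1 CPM in H1975 Samples 1a, 1b and 1c and 0.614, 3.10 and 1.16 CPM in H1975–OR Samples 2a, 2b and 2c. All H1975 libraries were above all H1975–OR libraries, and the H1975 libraries themselves spread over a wide range. The fitted log2 fold change was -4.00 (SE 0.75, edgeR adjusted p = 0.0078), a 16.0-fold lower level, and the adjusted p ranged from 4.36e-07 to 0.0319 over the alternative settings. In the treated H1975–OR groups it stayed between 0.558 and 4.95 CPM.

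PCDH18, a non-clustered member of the delta group at chr4:137518918-137532494, was nearly absent from parental cells. H1975 Samples 1a, 1b and 1c held 4, 0 and 0 counts, whereas H1975–OR Samples 2a, 2b and 2c held 44, 86 and 73 counts, or 9, 17.8 and 14.1 CPM. It passed the filter on low counts only through the H1975–OR libraries. The pooled counts of 203 against 4 gave a ratio of 55 (95% exact interval 21.2 to 204, counting error only). The fitted log2 fold change was 5.68 (SE 0.85, edgeR adjusted p = 0.0033), and it ranged from 5.12 to 5.89 over the alternatives other than the one without Sample 1a. That library holds all 4 parental counts, and without it the fitted value was 9.11 (edgeR adjusted p = 0.0030).

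PCDH7, a delta-group protocadherin at chr4:30720369-31146805, was the most abundant non-clustered member. Its level was 58.6, 85.3 and 111 CPM in the H1975 libraries and 12.3, 37.6 and 43.8 CPM in vehicle-treated H1975–OR libraries, without overlap. The fitted log2 fold change was -1.43 (SE 0.42, edgeR adjusted p = 0.0431). This call was close to the threshold: the adjusted p ranged from 0.00309 to 0.124 over 14 alternatives and missed 0.05 in 7 of them, with the highest value, 0.124, without Sample 1c, 0.0997 without Sample 1b, 0.0841 without Sample 2b and 0.0814 with Sample 3a kept in.

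**Figure D2:**
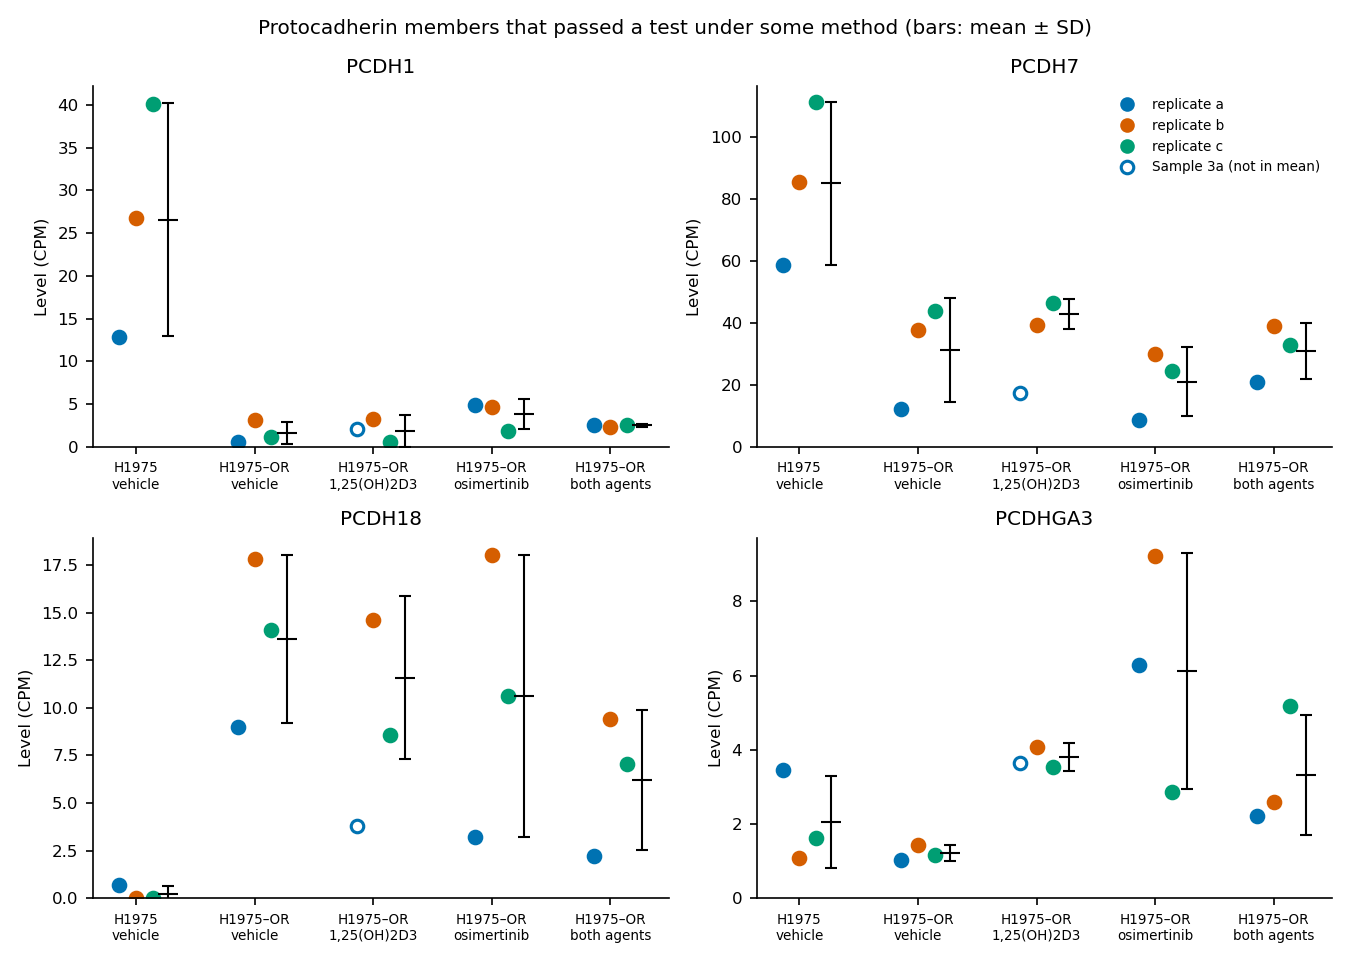
Level (CPM, y axis, from 0) of PCDH1, PCDH7, PCDH18 and PCDHGA3 in each library of the 5 groups (x axis), coloured by replicate letter, with the mean ± SD at the right of each group and Sample 3a as an open circle outside the mean. H1975 libraries lie above all vehicle-treated H1975–OR libraries for PCDH1 and PCDH7 and below them for PCDH18.

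PCDH9, another delta-group member, had 1.56, 1.46 and 1.63 CPM in H1975 and 6.75, 0.827 and 3.28 CPM in vehicle-treated H1975–OR libraries, which overlapped (log2 fold change 1.23, SE 0.72, edgeR adjusted p = 0.269). PCDH12, known from vascular endothelium, was under the filter in this fit and ranged from 0.186 to 2.42 CPM over the 14 libraries. Endothelial markers summed to 4.19 to 4.33 CPM in H1975 and 1.02 to 2.31 CPM in vehicle-treated H1975–OR cells. Their part in the PCDH12 level was not tested.

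Summed over the 12 non-clustered genes, H1975 libraries had 76.1, 115 and 154 CPM and vehicle-treated H1975–OR libraries 31.1, 61.2 and 63.1 CPM. The groups did not overlap, and the ratio of the H1975–OR mean to the H1975 mean was 0.451. In H1975, PCDH7 averaged 74.5% and PCDH1 22.1% of this sum. In vehicle-treated H1975–OR cells, PCDH7 averaged 56.8%, PCDH18 26.8% and PCDH1 2.96%, so that the sum includes a gene that was higher in H1975–OR. Epithelial markers moved between the same libraries: the summed level of the 7 markers was 4494 to 5560 CPM in H1975 and 3596 to 3934 CPM in vehicle-treated H1975–OR cells, and 5 of the 7 had a lower mean in H1975–OR. EPCAM averaged 152 against 11.6 CPM, KRT19 1144 against 340 CPM and KRT7 1460 against 526 CPM, whereas KRT18 averaged 1899 against 2445 CPM. Their part in the PCDH1 and PCDH7 levels was not tested.

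The sums of the 3 clusters differed far less. PCDHA summed to 142, 129 and 152 CPM in H1975 and to 142, 169 and 140 CPM in vehicle-treated H1975–OR libraries, a ratio of means of 1.07. PCDHB gave 154, 163 and 164 CPM in H1975 and 180, 207 and 161 CPM in H1975–OR, a ratio of 1.14. PCDHG gave 193, 160 and 219 CPM in H1975 and 201, 236 and 218 CPM in H1975–OR, a ratio of 1.15. Each cluster's groups overlapped. The SD over libraries in H1975 and in H1975–OR was 11.8 and 16.2 CPM for PCDHA. It was 5.23 and 23.3 CPM for PCDHB and 29.3 and 17.7 CPM for PCDHG. No p-value is given for a sum over chosen members.

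**Figure D3:**
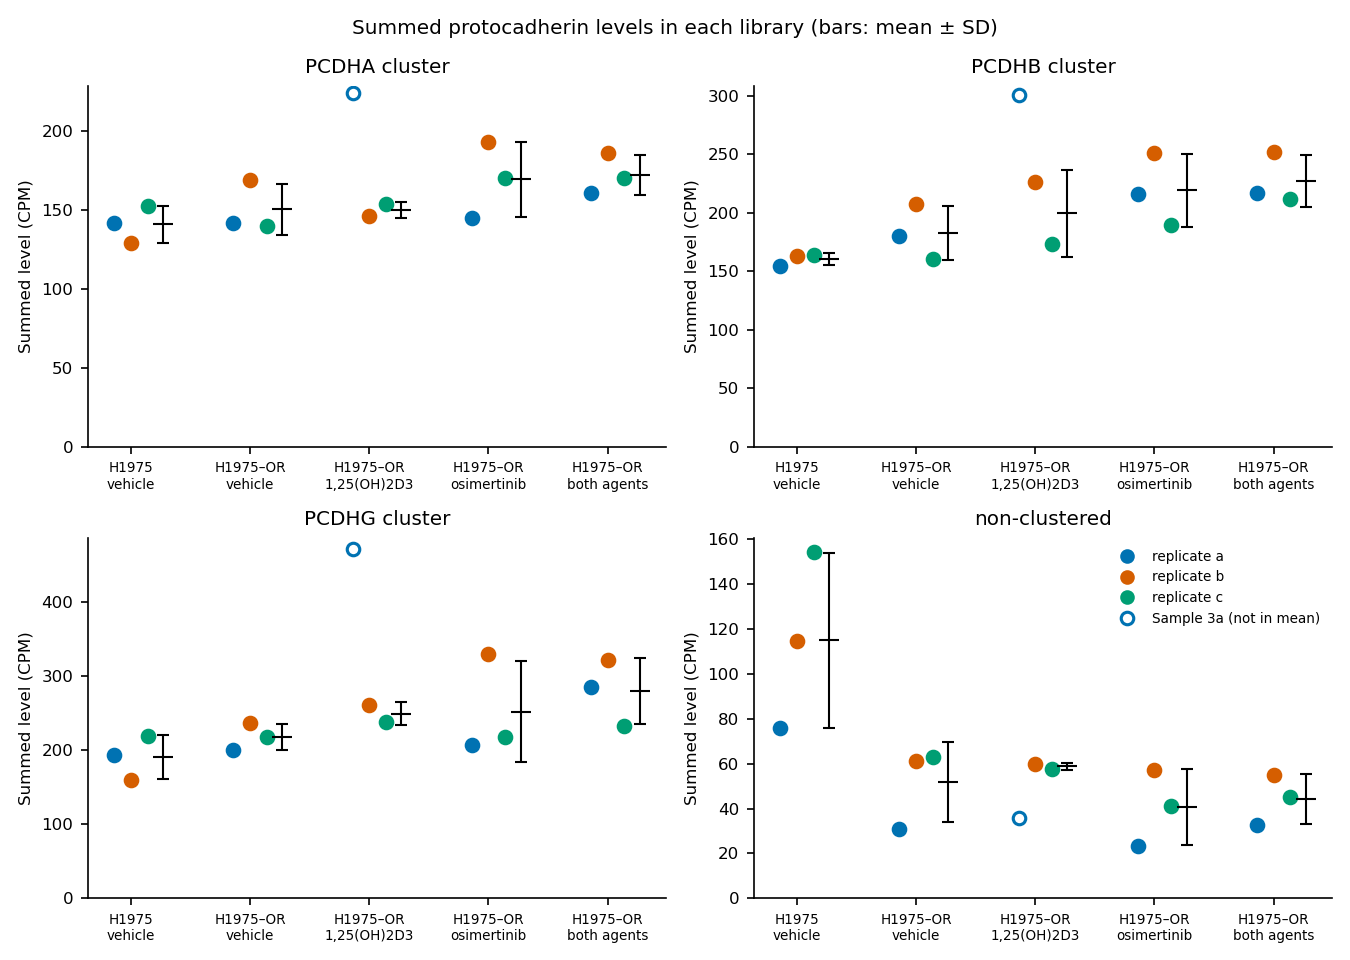
Summed level (CPM, y axis, from 0) of the PCDHA, PCDHB, PCDHG and non-clustered genes in each library of the 5 groups (x axis), coloured by replicate letter, with the mean ± SD at the right of each group and Sample 3a as an open circle outside the mean. Only the non-clustered sum separates H1975 from vehicle-treated H1975–OR libraries, and Sample 3a is the highest library in each cluster.

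Within the clusters, 0 of 48 tested members passed edgeR's quasi-likelihood test with adjustment between the cell lines, and 0 passed with DESeq2. At an unadjusted p under 0.05 there were 4, each higher in H1975–OR. This is a smaller share than the 20.1% of all genes that passed the stricter adjusted threshold. PCDHGB2 had 6.93, 8.39 and 5.70 CPM in H1975 and 10.2, 18.6 and 11 CPM in H1975–OR (log2 fold change 0.93, SE 0.32, edgeR adjusted p = 0.0721). The groups did not overlap, but the difference did not pass after adjustment. PCDHAC1 had 10.4, 8.20 and 12.6 against 12.5, 25.4 and 17.0 CPM (0.83, SE 0.31, edgeR adjusted p = 0.0899). PCDHGB3 had 12.3, 9.12 and 9.16 against 19.6, 16.6 and 14.5 CPM (0.74, SE 0.28, edgeR adjusted p = 0.0956). PCDHGB4, the fourth, had a log2 fold change of 0.45 (SE 0.18, edgeR adjusted p = 0.122).

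Among the most abundant members that did not approach the threshold, PCDHA10 differed by 0.12 on the log2 scale (SE 0.23), PCDHB16 by 0.33 (SE 0.19), PCDHB8 by 0.06 (SE 0.19) and PCDHGB5 by 0.40 (SE 0.28). Libraries of the cell lines did not overlap for 10 members that were higher in H1975–OR, against 19% of all genes, and for 4 that were lower, against 20.3% of all genes. The median log2 fold change over the 52 members was 0.14, and over all genes 0.01. In size irrespective of direction, the median was 0.31 for members and 0.41 for all genes.

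The genes that act on protocadherin promoters or with the proteins were read from lists of known factors. Of 19 tested regulators of clustered promoters, 6 fell in H1975–OR and 0 rose, where 20.1% of all genes passed in either direction (edgeR; 7 passed with DESeq2). RAD21, a cohesin subunit, had 215, 275 and 321 CPM in H1975 and 155, 128 and 126 CPM in vehicle-treated H1975–OR libraries (log2 fold change -0.97, SE 0.16, edgeR adjusted p = 0.0046). DNMT3B, a DNA methyltransferase, fell by 1.56 on the log2 scale (SE 0.26, edgeR adjusted p = 0.0050), and STAG1, another cohesin subunit, by 0.73 (SE 0.15, edgeR adjusted p = 0.0122). The other members that fell were the cohesin subunits SMC1A and SMC3 and CTCF itself, which had 87.1, 109 and 111 CPM in H1975 and 67.7, 68.9 and 64.4 CPM in H1975–OR; these 3 were named after their values were seen. The cluster sums given above overlapped between the same libraries, and a link between these regulators and the cluster levels was not tested.

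Of 18 tested intracellular partners and proteases of protocadherins, 2 rose and 3 fell in H1975–OR (edgeR; 5 passed with DESeq2), a share near the 20.1% of all genes. FYN, a Src-family kinase that acts downstream of alpha protocadherins, rose by a log2 fold change of 1.70 (SE 0.48, edgeR adjusted p = 0.0406). PTK2B, a kinase that the cytoplasmic tails bind and inhibit, fell by 0.82 on the log2 scale (SE 0.19, edgeR adjusted p = 0.0174). SET, a histone chaperone and phosphatase inhibitor, rose by a log2 fold change of 0.51 (SE 0.10, edgeR adjusted p = 0.0106).

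Of 6 tested giant and atypical cadherins, 1 rose and 1 fell (edgeR; 2 passed with DESeq2), again where 20.1% of all genes passed. FAT4, a giant cadherin of the Dachsous–Fat system, had 47.0, 52.0 and 44.8 CPM in H1975 and 107, 132 and 92.9 CPM in vehicle-treated H1975–OR libraries (log2 fold change 1.23, SE 0.17, edgeR adjusted p = 0.0021). CELSR1, a planar polarity cadherin, had 23.2, 33.6 and 88.7 CPM in H1975 and 4.5, 5.58 and 4.24 CPM in H1975–OR (log2 fold change -3.32, SE 0.50, edgeR adjusted p = 0.0035). In the treatment comparisons described next, no gene of these 3 lists passed with edgeR or DESeq2, with 0 to 2 genes a list and comparison at an unadjusted p under 0.05.

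**Figure D4:**
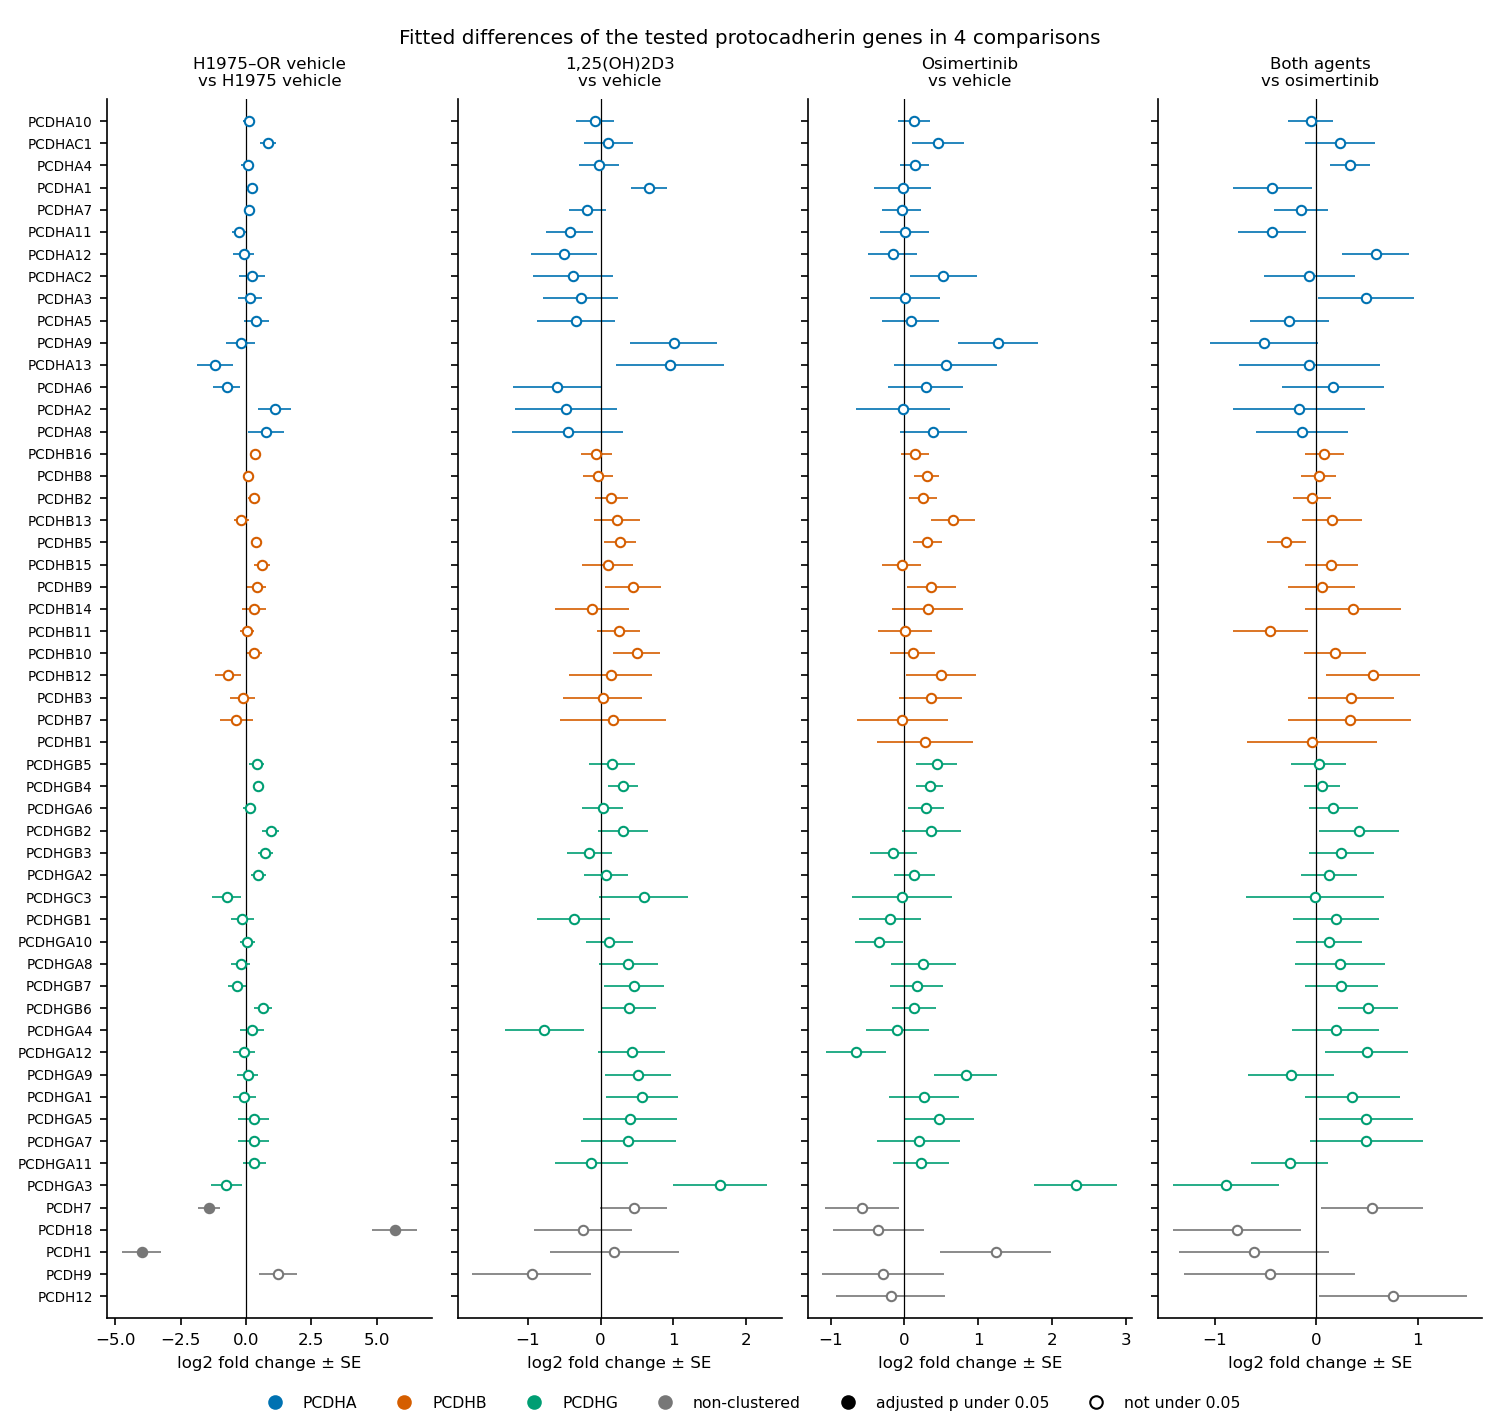
Fitted log2 fold change ± SE (x axis) of each tested protocadherin gene (y axis, by class and then by mean level) in the 4 comparisons, on an x scale that differs between panels. Filled points have an edgeR adjusted p under 0.05 and are PCDH1, PCDH7 and PCDH18 in the first panel only.

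No protocadherin passed the test when 1,25(OH)2D3 was given to H1975–OR cells. Of 52 members, 0 passed edgeR's quasi-likelihood test with adjustment and 0 passed with DESeq2, where 0.152% of all genes passed edgeR, and 2 had an unadjusted p under 0.05. PCDHA1 had 18.8, 16.1 and 14.7 CPM in vehicle-treated libraries and 28.8 and 23.8 CPM in Samples 3b and 3c (log2 fold change 0.67, SE 0.25, edgeR adjusted p = 0.587). The groups did not overlap, whereas Sample 3a had 18 CPM, within the vehicle range. PCDHGA3, the second, is described below. PCDH1, PCDH7 and PCDH18 had log2 fold changes of 0.19 (SE 0.89), 0.46 (SE 0.46) and -0.24 (SE 0.67), and overlapped the vehicle libraries. In Sample 3a these 3 genes had 2.07, 17.5 and 3.82 CPM.

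The PCDHG sum was 201, 236 and 218 CPM with vehicle and 260 and 238 CPM in Samples 3b and 3c, a ratio of means of 1.14 without overlap. PCDHA gave 146 and 154 CPM and PCDHB 226 and 173 CPM in the same libraries, which overlapped the vehicle values. The median log2 fold change over members was 0.13, against -0.01 over all genes, and the median size of change was 0.32 against 0.22. Libraries did not overlap for 7 members that were higher, against 13.1% of all genes, and for 1 that was lower, against 12.3% of all genes. Of the 52 members, these counts are close to and under the background shares.

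No call was made by edgeR either when resistant cells with osimertinib were compared with those from which it had been withdrawn. Of 54 members tested in a fit of 11 libraries and 12503 genes, 0 passed, against 0.048% of all genes, 2 had an unadjusted p under 0.05 and 1 passed with DESeq2. That gene, PCDHGA3, was singled out after its values were seen. It is a gamma isoform at low level, with 1.02, 1.45 and 1.16 CPM in vehicle-treated libraries and 6.28, 9.21 and 2.86 CPM under osimertinib. All 3 treated libraries were above all vehicle libraries, and H1975 libraries had 3.46, 1.09 and 1.63 CPM. The log2 fold change was 2.32 (SE 0.56), with an adjusted p of 0.309 in edgeR and 0.0451 in DESeq2, the only one of 17 alternatives in which it passed.

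PCDHGA3 was also higher in Samples 3b and 3c, with 4.08 and 3.53 CPM, than in the vehicle libraries that serve as controls in both comparisons (log2 fold change 1.64, SE 0.65, edgeR adjusted p = 0.611). Sample 3a had 3.66 CPM, and under both agents PCDHGA3 had 2.21, 2.59 and 5.19 CPM. As 45.3% of its transcript is constant exon, part of its count rests on reads shared with the other gamma members.

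PCDHA9, the second member with an unadjusted p under 0.05 under osimertinib, had 2.66, 3.10 and 1.93 CPM with vehicle and 2.85, 10.2 and 5.52 CPM with osimertinib, which overlapped (log2 fold change 1.27, SE 0.55, edgeR adjusted p = 0.644). The cluster sums under osimertinib were 145, 193 and 170 CPM for PCDHA, 216, 251 and 190 CPM for PCDHB and 207, 330 and 218 CPM for PCDHG. Taken as groups, each overlapped the vehicle values, with ratios of means of 1.13, 1.20 and 1.15. Replicate letters pair these groups, and within letters a, b and c the ratio of osimertinib to vehicle was 1.20, 1.21 and 1.18 for PCDHB, 1.02, 1.14 and 1.22 for PCDHA and 1.03, 1.40 and 1.00 for PCDHG. The sums of all 3 clusters were thus higher in 3 of 3 pairs. The difference was slight for PCDHA in letter a and for PCDHG in letters a and c. The share of all genes that were higher in 3 of 3 pairs was not counted. The non-clustered sum was lower in 3 of 3 pairs, with ratios of 0.753, 0.933 and 0.655. These sums were not tested. The median log2 fold change was 0.18 over members and 0.01 over all genes. Libraries did not overlap for 4 members that were higher, against 5.96% of all genes, and for 1 that was lower, against 6.81% of all genes.

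None of the 3 genes that separated the cell lines passed the test under osimertinib, and each overlapped the vehicle libraries when taken as groups. Within letters, PCDH1 was higher and PCDH7 lower with osimertinib in each pair, while PCDH18 went in both directions. These directions within pairs were not tested. PCDH1 had 4.95, 4.71 and 1.84 CPM with osimertinib (log2 fold change against vehicle 1.24, SE 0.75, edgeR adjusted p = 0.810). PCDH18 had 3.23, 18 and 10.6 CPM (-0.36, SE 0.62, edgeR adjusted p = 0.954). PCDH7 had 8.56, 30.1 and 24.3 CPM (-0.57, SE 0.50, edgeR adjusted p = 0.890).

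Adding 1,25(OH)2D3 to osimertinib gave differences within replicate spread for the cluster sums and no call for single members. Of 54 members, 0 passed edgeR, against 0.096% of all genes, 0 had an unadjusted p under 0.05 and 0 passed with DESeq2. No member's libraries separated in either direction, where 3.82% of all genes were higher and 4.11% lower without overlap. PCDHA summed to 160, 186 and 170 CPM, PCDHB to 217, 252 and 212 CPM and PCDHG to 286, 321 and 232 CPM under both agents. Those values overlapped the sums under osimertinib alone, with ratios of means of 1.02, 1.04 and 1.11. Within letters a, b and c the ratios were 1.11, 0.964 and 0.999 for PCDHA, 1.01, 1.00 and 1.12 for PCDHB and 1.38, 0.973 and 1.07 for PCDHG. The non-clustered sum was 32.5, 55 and 45.3 CPM under both agents and 23.4, 57.1 and 41.3 CPM under osimertinib. Within letters, PCDH18 was lower and PCDH7 higher under both agents than under osimertinib in each pair, while PCDH1 went in both directions. PCDH18 had 2.21, 9.40 and 7.08 CPM under both agents and PCDH7 21.1, 39.0 and 32.8 CPM, which overlapped the osimertinib values. These directions within pairs were not tested, and their share over all genes was not counted.

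Whether the effect of 1,25(OH)2D3 differed with and without osimertinib was tested as an interaction. For 54 members, 0 passed edgeR, as did 0% of all genes, and 0 passed with DESeq2. The only member with an unadjusted p under 0.05 was PCDHGA3, with a difference of -2.52 on the log2 scale (SE 0.80, edgeR adjusted p = 1). The vehicle and the osimertinib groups each enter this difference and the comparisons above.

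Sample 3a carried the highest clustered protocadherin level of the series. Its clustered members summed to 996 CPM, whereas the other 14 libraries lay between 451 and 774 CPM. The excess was greatest for PCDHG, at 472 CPM against a highest value of 330 CPM elsewhere, and smaller for PCDHB, at 301 against 252 CPM, and PCDHA, at 224 against 193 CPM. The non-clustered sum of 35.8 CPM was within the range of the H1975–OR libraries.

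Gene by gene, Sample 3a was the highest of 15 libraries for 30 of 54 tested members, against 15.9% of all genes tested. By class this held for 15 of 20 PCDHG, 9 of 14 PCDHB, 5 of 15 PCDHA and 1 of 5 non-clustered members. The median log2 ratio to the vehicle-treated H1975–OR mean (with 0.5 CPM added) was 0.83 over members, 1.11 over PCDHG members and -0.03 over all genes. All 20 PCDHG members were above that mean. As 44.8% to 45.9% of each PCDHG transcript is constant exon, and PCDHA members share exons too, members of these clusters are not separate observations. PCDHGA9 had 15.9 CPM in Sample 3a and at most 9.70 CPM elsewhere, and PCDHGB6 had 23.5 CPM against at most 12.7. PCDHB5 and PCDH18 went the other way, with 16.5 and 3.82 CPM in Sample 3a against 18.9 to 25.2 and 9 to 17.8 CPM in the vehicle libraries.

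Other measures of the same library stand beside this. PCDHB genes have 1 exon, and other genes with 1 canonical exon were highest in Sample 3a in 21.6% of 222 cases, against 16.0% of 11834 genes with more exons. The neuronal marker sum in Sample 3a was 53.9 CPM, the lowest of all libraries, the glial sum was 49.95 CPM and the leukocyte sum 8.59 CPM. Its mitochondrial share and number of genes detected are given above. The part of these measures in the protocadherin levels of Sample 3a was not tested.

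**Figure D5:**
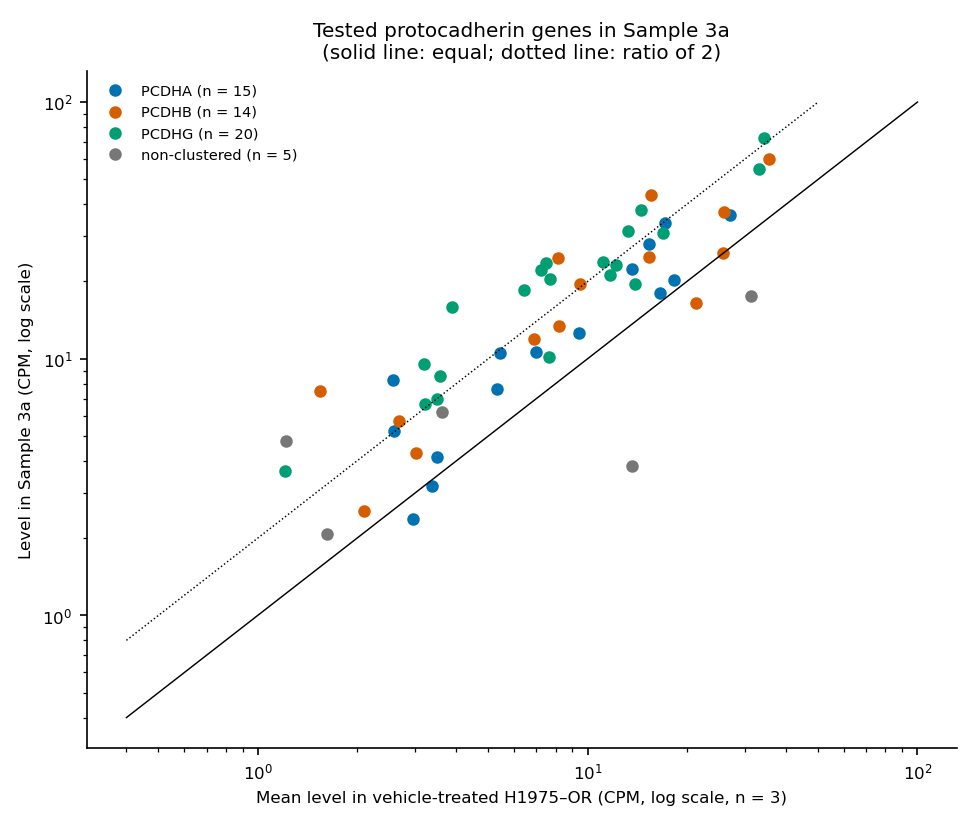
Level in Sample 3a (CPM, log scale, y axis) of each tested protocadherin gene against its mean in the 3 vehicle-treated H1975–OR libraries (CPM, log scale, x axis), coloured by class, with a solid line at equality and a dotted line at a ratio of 2. All 20 PCDHG points lie above the solid line, and PCDH7 and PCDH18 lie below it.

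Replicate letters moved with some members. In each of the 4 H1975–OR groups, Sample 3a included, the library with letter a was the lowest for PCDH7, PCDH18 and PCDHB2, as for 9.34% of all genes, and the highest for PCDH9 and PCDHB3, as for 9.54%. For PCDH18 the letter b library was the highest in each group, as for 2.33% of all genes, and 5 members, among them PCDHGB5, PCDHGB3 and PCDHB13, were lowest in letter c in each group, as for 4.63%. In H1975 cells, Sample 1a also had the lowest PCDH7 and PCDH1 levels. The letters did not pair H1975 with H1975–OR libraries. PCDH1, PCDH7 and PCDH18 did not overlap between H1975 and vehicle-treated H1975–OR cells, so their directions are the same under any matching of libraries.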

How the data were processed

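Total RNA was depleted of ribosomal RNA, made into stranded libraries and sequenced in paired ends by the authors, who quantified transcripts with Kallisto on hg38 and summed them to genes with tximport. The deposited values are estimated counts per gene, which the authors made in this way and did not normalize. The submitters' processing notes also name CASAVA 1.8.2, STAR 2.5.2b and kallisto 0.43.0; the annotation was not given in the sources used here. No column of the authors' own comparisons was used.

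Counts were rounded to whole numbers. Genes passed edgeR's filterByExpr (minimum count 10, minimum total 15). edgeR 4.0.16 (R 4.3.3) was run with TMM factors, glmQLFit and glmQLFTest and Benjamini–Hochberg adjustment over all genes tested, at a threshold of 0.05, without Sample 3a, in a fit of 8 libraries (H1975, vehicle and 1,25(OH)2D3) and one of 11 (all H1975–OR groups). DESeq2 1.42.0 was an alternative, as were RLE size factors, no filter, Sample 3a kept in, a replicate block, all 14 libraries in one fit and leaving out each replicate. The tests were checked on simulated counts. The share of all genes at an unadjusted p under 0.05 was not counted, so member counts at that threshold have no background beside them. CPM values divide by TMM-adjusted totals. Intervals on counts cover counting error only, and totals of 4378033 to 6140025 counts limit genes at a few CPM. Replicates were separate passages of 1 line each, so that p-values measure the spread between passages.

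Groups came from the sample titles, and letters a to c are the titles' replicate letters. Same-letter deviations from the group means correlated between vehicle, osimertinib and combination groups (0.118 to 0.464 over 3 pairs each), so the letters pair these groups, and did not between H1975 and H1975–OR (-0.123 to 0.0824). No source says that a letter marks a passage. Named genes were members with an adjusted p under 0.05, the 5 members of each class with the highest mean CPM and, of each pathway list, at most 3 genes that passed per comparison; others are named as chosen after their values were seen or as examples of a count. Members and lists were chosen with earlier results of these data known. Gene positions, exons and lengths came from GENCODE 44, and promoters from RefSeq (GRCh38.p14).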

Additional observations from a re-analysis of the deposited data

Results flagged for a closer look

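Sample 3a, the 1,25(OH)2D3-treated H1975–OR library that stayed out of the tests, held clustered protocadherin levels above every vehicle-treated H1975–OR library, which is why it is listed here. The clustered sum was 995.9 CPM against at most 612.0 CPM with vehicle. PCDHA summed to 223.5 CPM against at most 168.8, PCDHB to 300.9 CPM against at most 207.2 and PCDHG to 471.5 CPM against at most 236.0. Samples 3b and 3c of the same treatment had clustered sums of 632 and 565 CPM, the first above and the second within the vehicle range of 518 to 612 CPM. Groups of 3 libraries were too small for a search for single outlying libraries.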

How the results depend on the processing

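The count of members called between H1975–OR and H1975 was 3 and ranged from 2 to 4 over 14 alternatives; PCDH1 and PCDH18 passed in all of them, PCDH7 in 7, and the fourth call, without Sample 2a, was PCDHAC1. With the replicate block the count was again 3, and 0 members passed in each treatment comparison, so the block changed no call. Unless an alternative is named, the fold changes, SE and adjusted p-values printed above came from the edgeR fits without this block, which ignore the letters. No member passed for 1,25(OH)2D3 against vehicle, both agents against osimertinib, or the interaction under any alternative run. For osimertinib against vehicle, DESeq2 called 1 member, PCDHGA3, and the other 16 alternatives none; the cause was not tested. With Sample 3a kept in, the log2 ratio of the PCDHA sum for 1,25(OH)2D3 against vehicle moved from -0.003 to 0.22 and that of the PCDHG sum from 0.19 to 0.57, since this library's sums enter the mean. The remaining cluster and non-clustered ratios moved by less than the spread between replicates. Depth limits most members: the median PCDHA gene had 7.77 CPM, and single PCDHA and PCDHG values rest in part on reads from shared exons.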

Other observations

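Values of 2 further non-clustered members, too low to be tested in any comparison, are given without a test. PCDH19, an X-linked member known from neuronal adhesion, had 0 counts in the 8 libraries of H1975, vehicle-treated H1975–OR and the 1,25(OH)2D3 group other than Sample 3a (0.159 CPM), and 0.381, 0.819 and 1.23 CPM under osimertinib and 0.401, 0.705 and 0 CPM under both agents. PCDH15, known from the tip links of inner-ear hair cells, was at most 1.11 CPM, its value in Sample 3a. These levels are close to the 3 counts per library that a count of 0 allows.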
